A study of Mus musculus with 4 samples.

Results

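The genes described here are Il4, Il13 and Il5, which code for the type 2 cytokines, their neighbours Rad50 and Kif3a on chromosome 11, and Gata3 on chromosome 2. They were chosen by name, 6 of the 21887 genes with a window, and open chromatin over them was followed in every cell type label and both tissues. The T cells came from mice 4 weeks after AKP organoids were transplanted into the cecum wall. AKP organoids are engineered mouse intestinal organoids that lack Apc and Trp53, which grow into tumors at that site. T cells were sorted from the tumor and from adjacent cecum without tumor, and nuclei were run in a multiome assay that measures RNA together with chromatin accessibility (ATAC) in each nucleus. There was 1 ATAC library per tissue. All cells of both groups come from tumor-bearing hosts, so there is no cecum of an animal without a tumor, and the genotype and number of animals behind each library are not given in the sources used here.

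GATA3 is the transcription factor that specifies type 2 helper (Th2) cells, and it also has roles in T cell development and in tissue Treg cells. The cytokine genes lie in 1 cluster. IL-4 and IL-13 act through a shared receptor chain on mucosal, macrophage and B cells, and IL-5 supports eosinophils. Rad50 codes for a DNA repair protein and lies between Il13 and Il5, and its end nearest Il13 holds the Th2 locus control region. Kif3a codes for a kinesin motor subunit and lies beyond Il4. An enhancer is known between Il4 and Il13, and both an enhancer and a silencer are known downstream of Il4.

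The cecum library held 66399623 fragments and the tumor library 96644537, of which 66.2% and 64.3% came from 7155 and 8466 labelled cells. Median depth per labelled cell was 4374 (cecum) and 5846 (tumor) fragments. The study made 17 cell type labels by clustering the RNA of the same nuclei. It named the Th2 cluster from type 2 genes that include members of this set. The Treg clusters were named IL-10+ and IL-10- by their Il10 RNA. Chromatin at these genes is therefore a second readout of the same cells and not an independent check of the names. The Th2 label covered 90 cecum cells with 568803 fragments and 58 tumor cells with 438981 fragments, which makes it the smallest label of the tumor library. The label PD1+ CD4 had 14 cecum cells and 616 tumor cells, so it was left out of the order of labels, which used the other 16. The same barcode sequence was labelled in both libraries for 84 cells. Levels are given as fragments per 1000000 fragments of a label (FPM) with an end inside a window, and the window of a gene is its span with 5 kb on each side. In GRCm38 the spans are chr11:53565701-53604248 for Kif3a (plus strand), chr11:53612460-53618665 for Il4 (minus), chr11:53631323-53634702 for Il13 (minus), chr11:53649519-53707319 for Rad50, chr11:53720794-53725103 for Il5 (plus) and chr2:9857078-9887953 for Gata3 (minus). The Kif3a and Il4 windows share 1789 bases, and no other neighbouring windows of the cluster overlap. With 1 library per tissue no test was possible. Intervals are exact at 95% and cover counting error only, so they leave out variation between animals.

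Promoters of 5 members were in the RefSeq table of GRCm38.p6, and the 250 bases before a start are shown here for Il4, Il13, Il5 and Gata3, since the promoter counts and distances given below refer to them. Capitals mark letters that GATA factors can bind, that is AGATAA or AGATAG and also TGATAA or TGATAG, on either strand. Il4 has an outer start at chr11:53618666-53618915 (minus strand) and an inner start at chr11:53617339-53617588 (minus strand). The others are Il13 at chr11:53634703-53634952 (minus strand), Il5 at chr11:53720544-53720793 (plus strand) and Gata3 at chr2:9878601-9878850 (minus strand).
Il4 outer start: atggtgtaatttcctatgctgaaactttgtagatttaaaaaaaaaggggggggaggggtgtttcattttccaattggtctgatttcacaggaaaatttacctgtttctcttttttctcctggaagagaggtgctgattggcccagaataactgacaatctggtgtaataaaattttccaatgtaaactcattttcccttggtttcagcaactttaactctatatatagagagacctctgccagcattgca
Il4 inner start: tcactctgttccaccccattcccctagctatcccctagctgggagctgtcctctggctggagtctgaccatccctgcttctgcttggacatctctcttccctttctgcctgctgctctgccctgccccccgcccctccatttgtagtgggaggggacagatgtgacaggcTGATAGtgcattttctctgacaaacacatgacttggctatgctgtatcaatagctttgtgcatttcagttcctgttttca
Il13: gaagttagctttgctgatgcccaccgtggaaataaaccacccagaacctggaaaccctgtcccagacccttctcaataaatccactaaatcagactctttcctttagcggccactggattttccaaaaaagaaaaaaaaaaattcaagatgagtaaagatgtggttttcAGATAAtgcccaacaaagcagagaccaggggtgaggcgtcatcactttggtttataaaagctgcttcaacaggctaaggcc
Il5: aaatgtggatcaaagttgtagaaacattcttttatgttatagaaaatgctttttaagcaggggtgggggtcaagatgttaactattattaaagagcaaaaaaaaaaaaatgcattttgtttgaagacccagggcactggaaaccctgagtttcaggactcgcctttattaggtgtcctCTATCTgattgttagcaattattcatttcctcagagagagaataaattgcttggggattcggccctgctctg
Gata3: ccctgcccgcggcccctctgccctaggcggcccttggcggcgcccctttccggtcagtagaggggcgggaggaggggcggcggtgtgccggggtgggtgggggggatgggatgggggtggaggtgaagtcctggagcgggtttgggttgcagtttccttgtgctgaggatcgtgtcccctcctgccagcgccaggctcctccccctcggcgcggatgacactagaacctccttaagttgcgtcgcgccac
The 3 cytokine genes each had 1 GATA match, in the case of Il4 before the inner start and not before the outer one. The match lay 75 bases before the inner Il4 start, 76 bases before the Il13 start and 67 bases before the Il5 start, counted to its nearest base. Among all 32851 promoters of the table, 26.5% held such letters in the same 250 bases. The outer Il4 promoter held 1 match to the STAT motif, TTC and GAA with any 4 bases between them, which 5.85% of promoters hold, and none of the printed sequences held the AP-1 letters TGANTCA, which 6.75% hold. These matches describe letters and not binding.

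Over the window from 250 bases before to 50 after a start, the Il4 and Il13 promoters were sparsely covered outside Th2 cells. At the outer Il4 start 7 fragments came from the 90 cecum Th2 cells and 3 from the other 7065 labelled cecum cells, so that Th2 cells stood 7.48 higher on the log2 scale (interval 5.35 to 10.06). In the tumor the counts were 4 and 4, with a log2 ratio of 7.13 (4.71 to 9.56). At the inner Il4 start Th2 cells had 17.6 FPM in cecum and 13.7 FPM in tumor against 0.299 and 0.243 FPM in all other labelled cells. The Il13 promoter had 12.3 FPM in cecum Th2 cells and 13.7 FPM in tumor Th2 cells, against 0.76 and 1.43 FPM elsewhere. IL-10- Treg cells held 16 of the 33 cecum fragments at the Il13 promoter that were outside Th2 cells, and PD1+ CD4 cells held 45 of the 88 in the tumor. Tumor IL-10- Treg cells held only 3 of those 88, at 0.517 FPM. The Il5 promoter had no Th2 fragment in either library, and the other labelled cells had 3 in cecum and 6 in tumor. A count of 0 in Th2 cells, set to 3 counts, allows up to 5.27 FPM in cecum and 6.83 FPM in tumor, and the intervals of the Il13 promoter level in Th2 cells start at 4.95 and 5.02 FPM. The Gata3 promoter was open outside Th2 cells as well, at 14.6 and 14.3 FPM against 26.4 and 27.3 FPM in Th2 cells.

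Th2 was the label with the highest level of all 6 members in both libraries. This did not hold for Il5 over the gene span without a flank, where newly activated CD4 cells led in cecum and Rorgt gdT cells in tumor, nor for Il5 as a mean over cells in tumor, led by Rorgt gdT, nor for Rad50 within 1 kb of its ends in cecum, led by CCR7+ CD4. Over all 17355 genes tested, 3.13% were led by Th2 in both libraries, and 26.0% were led by any 1 label in both. Against all other labelled cells, 5 of the 6 members were at least 2-fold higher in Th2 cells in both libraries, where 1.38% of genes were (4.7% in the cecum alone and 3.55% in the tumor alone). The exception was Gata3, which passed 2-fold in the cecum only. Over spans without a flank the count was 4, since the Il5 span held no Th2 fragment in cecum, so the Il5 call and its place below rest on the flank. Within 1 kb of gene ends the count was again 5, with Gata3 in and Rad50 out, and as a mean over cells it was 6. None of the 6 was 2-fold lower, where 4.22% of genes were in both, which says little for so few genes. The number of genes with a larger ratio, by the smaller of the libraries, was 21 for Il5, 32 for Il13, 33 for Il4, 52 for Kif3a, 91 for Rad50 and 298 for Gata3. In Th2 cells themselves the median gene stood 0.05 lower than in the other cells in each library.

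**Figure D1:**
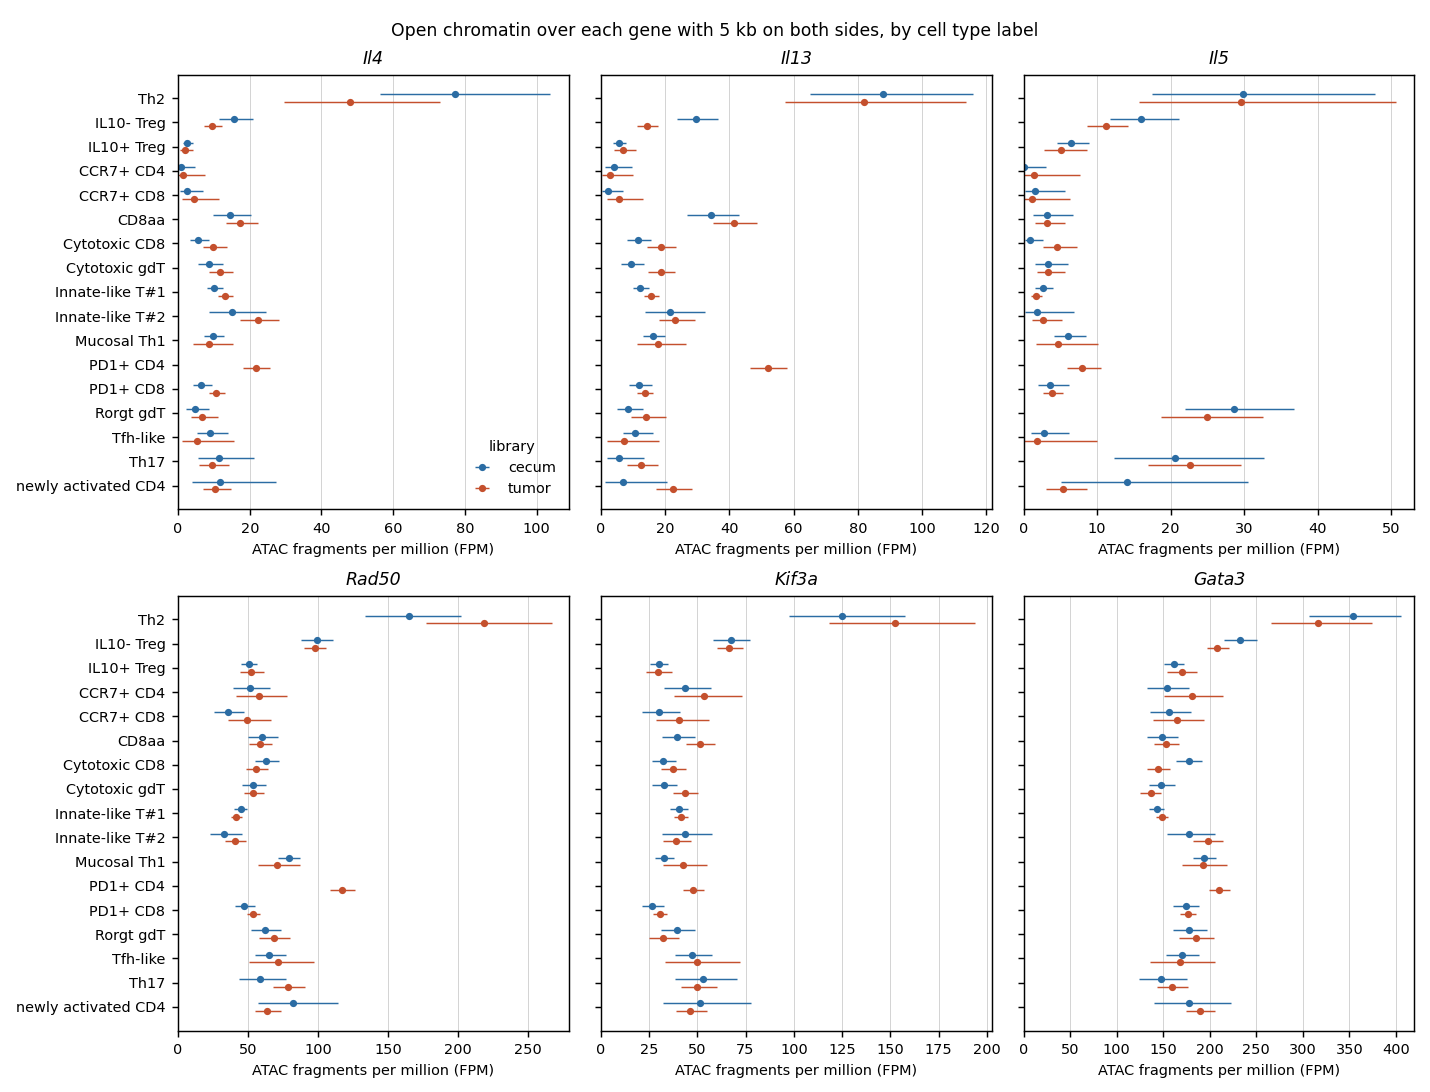
Each panel shows 1 gene, with FPM over the span and 5 kb on each side on the x axis and the cell type label on the y axis. Points are the pooled cells of a label in 1 library (cecum blue, tumor red), bars are exact 95% Poisson intervals, and the 14 cecum PD1+ CD4 cells are not drawn. Th2 is highest in every panel, joined at Il5 by Rorgt gdT and Th17.

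Il4 had the widest gap in cecum between Th2 and the second label. Th2 cells had 77.4 FPM in cecum (interval from 44 fragments) and 47.8 FPM in tumor (21 fragments). Over the other 15 ranked labels the level ran from 0.838 FPM in cecum CCR7+ CD4 cells through a median of 8.91 to 15.7 FPM in IL-10- Treg cells, and in the tumor from 1.37 FPM, also in CCR7+ CD4 cells, through 9.47 to 22.2 FPM in Innate-like T#2 cells. Th2 exceeded the second label by 2.30 on the log2 scale in cecum (1.68 to 2.93) and by 1.11 in tumor (0.32 to 1.83). Below Th2, no ranked label of either library was separated from its next neighbour in the order by an interval above 0. Relative to all other labelled cells Th2 was 3.23 higher in cecum (2.74 to 3.68) and 1.97 higher in tumor (1.27 to 2.59).

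Il13 followed Il4 at the top and had a different runner-up. Its level in Th2 cells was 87.9 FPM in cecum and 82.0 FPM in tumor. The next ranked label was CD8aa in both libraries, at 34.3 and 41.3 FPM, and Th2 exceeded it by 1.36 (0.81 to 1.89) and 0.99 (0.42 to 1.53) on the log2 scale. The lowest were CCR7+ CD8 cells in the cecum at 2.36 FPM and CCR7+ CD4 cells in the tumor at 2.74 FPM, and the medians without Th2 were 10.8 and 14.3 FPM. CD8aa cells, a CD8 T cell type typical of the gut epithelium, were 1.40 (1.02 to 1.75) and 1.07 (0.81 to 1.32) above all other labelled cells at Il13 on the log2 scale. This made Il13 the 1 member of 6 that was at least 2-fold higher in CD8aa cells in both libraries, as 0.49% of all genes were. Tumor PD1+ CD4 cells were outside the order and had 51.9 FPM at Il13 from 319 fragments, 1.57 above the other tumor cells (1.38 to 1.75). Il13 was also the only member at least 2-fold higher in PD1+ CD4 cells, where 2.37% of genes were. Their 21.6 FPM at Il4 and 117 FPM at Rad50 stood 0.92 and 0.98 above the other tumor cells on the log2 scale.

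Il5 was not particular to Th2 cells. Th2 had 29.9 FPM in cecum and 29.6 FPM in tumor, but from only 17 and 13 fragments. Rorgt gdT cells, gamma delta T cells named for the type 17 factor RORgt, had 28.7 and 24.9 FPM, and Th17 cells had 20.7 and 22.7 FPM. Th2 differed from Rorgt gdT by 0.06 on the log2 scale in the cecum, with an interval of -0.81 to 0.85, and by 0.25 in the tumor, with an interval of -0.75 to 1.14, so the order of these labels was not resolved at this depth. The medians without Th2 were 3.32 and 3.83 FPM. Cecum CCR7+ CD4 cells had no fragment at Il5, where 3 fragments would be 2.51 FPM, and the lowest tumor label was CCR7+ CD8 at 1.13 FPM. Against all other labelled cells Rorgt gdT stood 2.42 higher in cecum (1.99 to 2.83) and 2.20 higher in tumor (1.76 to 2.63). Il5 was the 1 member of 6 past 2-fold in Rorgt gdT cells, with a background of 2.28%, and again in Th17 cells, with a background of 1.03%.

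Rad50 and Kif3a, neither of which codes for a cytokine, were led by Th2 with IL-10- Treg cells next. Rad50 had 165 FPM in cecum Th2 cells and 219 FPM in tumor Th2 cells, 0.74 and 1.16 above IL-10- Treg cells on the log2 scale with intervals above 0. Tumor PD1+ CD4 cells, outside the order, had 117 FPM. The medians of Rad50 without Th2 were 58.6 and 57.5 FPM, and Innate-like T#2 cells were lowest in both tissues at 33.0 and 40.5 FPM. Kif3a had 125 FPM in cecum Th2 cells and 153 FPM in tumor Th2 cells, against 67.3 and 66.5 FPM in IL-10- Treg cells and medians of 39.4 and 42.5 FPM. Its lowest levels were 26.7 FPM in cecum PD1+ CD8 cells and 29.7 FPM in tumor IL-10+ Treg cells. Part of the Kif3a value lay outside the gene. Over the span alone, Th2 was 1.14 above the other labelled cells in cecum and 1.10 in tumor, compared with 1.71 and 1.82 with the flank. For Rad50, Th2 stood only 0.17 and 0.61 higher within 1 kb of its 2 ends. The intervals over the whole window were 1.18 to 1.79 and 1.47 to 2.07. The window at the ends leaves out most of both the gene and the flanks, so it cannot tell them apart.

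Gata3 was open in every label, and Th2 stood on top of a high floor. Th2 cells had 353 FPM in cecum and 317 FPM in tumor. The lowest label was Innate-like T#1 at 143 FPM in cecum and Cytotoxic gdT at 136 FPM in tumor, and the medians without Th2 were both 170 FPM. Thus all labels but Th2 and IL-10- Treg lay between 143 and 194 FPM in the cecum. Th2 exceeded the second label, IL-10- Treg, by 0.60 on the log2 scale in cecum (0.37 to 0.83) and by 0.60 in tumor (0.34 to 0.86). Against all other labelled cells the difference was 1.07 (0.86 to 1.27) and 0.88 (0.63 to 1.12), the smallest of the 6 members in both libraries. Within 1 kb of either end of the span it was 1.34 and 1.42. Tumor PD1+ CD4 cells had 210 FPM, close to the 208 FPM of tumor IL-10- Treg cells.

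To see where in the cluster the fragments lay, 500-bp tiles were counted over the 159.4 kb from the start of Kif3a to the end of Il5. Of 320 tiles, 44 had at least 20 fragments over the labelled cells of each library, and 26 of those 44 (59.1%) were at least 2-fold higher in Th2 cells in both libraries. Of the 270559 tiles of the genome with the same minimum, 5.09% were. A tile near the minimum of 20 fragments would hold under 1 from Th2 cells at an even level, so there 1 Th2 fragment can pass 2-fold and a lower level could not be read. Th2 fragments counted towards the minimum, so a tile could also pass only through them. This favours a 2-fold call, in the cluster as over the genome. Of the 26 tiles, 17 also had intervals above 0 in both libraries, as did 0.603% of the tiles of the genome. With FPM + 5 the number past 2-fold was 12. By position, 10 were in the Rad50 span, 4 in Kif3a, 2 in Il4, 1 in Il13 and 9 between genes. Exons and introns are not given, since the gene table used here has spans only.

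**Figure D2:**
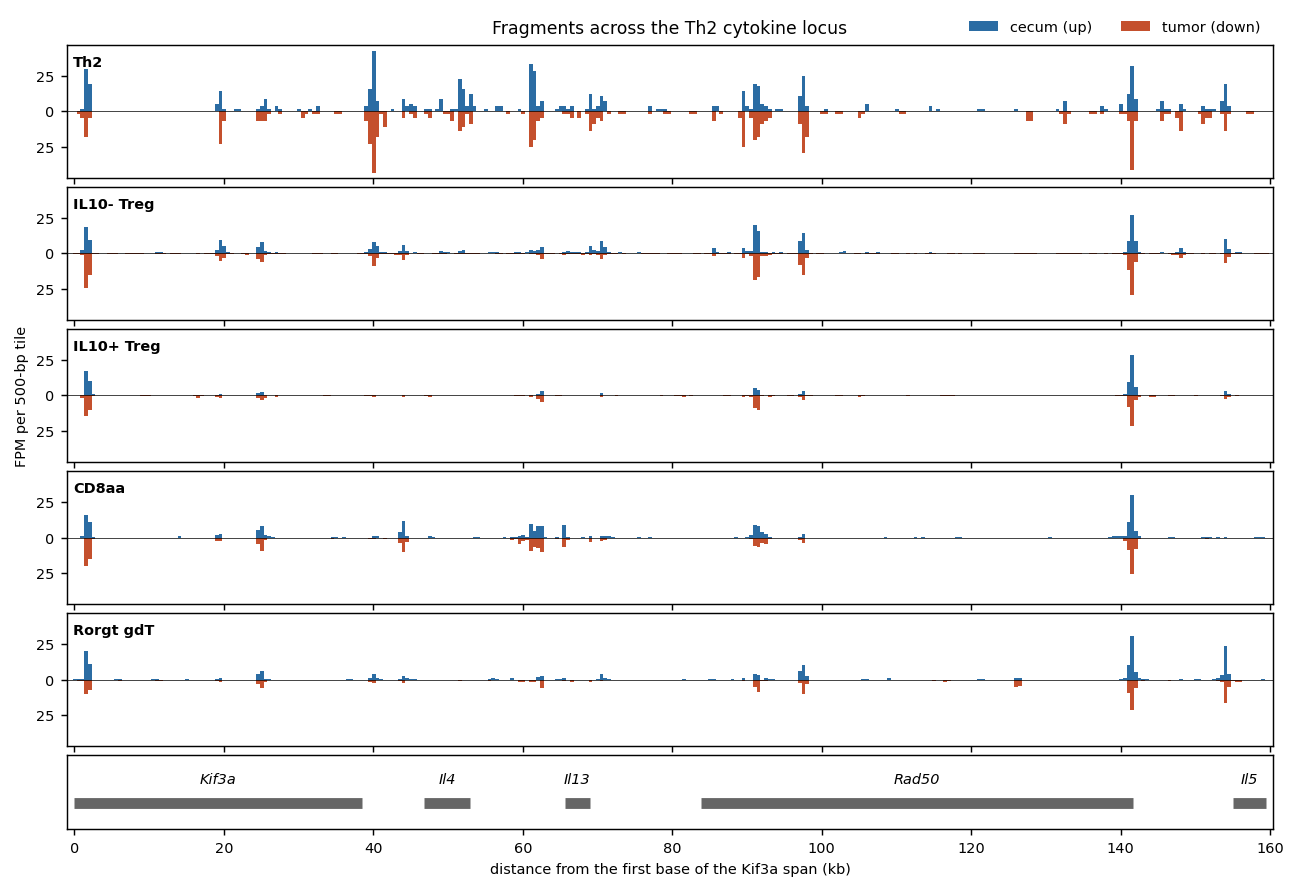
FPM per 500-bp tile (y axis, cecum drawn upward and tumor downward on 1 shared scale) against distance from the first base of the Kif3a span in kb, for 5 labels, with gene spans as grey bars. The tiles near 40 and 61 kb are tall in Th2, the tile near 154 kb is tall in Rorgt gdT, and the tiles at the left end of Kif3a and the right end of Rad50 are tall in all 5 labels.

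The tallest Th2 tile was chr11:53605501-53606000, which lies between Kif3a and Il4, 12.9 kb downstream of the outer Il4 start. It had 42.2 FPM in cecum Th2 cells and 43.3 FPM in tumor Th2 cells, against 1.77 and 2.53 FPM in the other labelled cells. The log2 ratios were 4.57 (3.85 to 5.25) and 4.10 (3.33 to 4.79). IL-10- Treg cells were second there, with 24 and 51 fragments, and IL-10+ Treg cells had 0.525 and 0.733 FPM. The tile just before it, at chr11:53605001-53605500, behaved alike in Th2 cells with log2 ratios of 3.90 and 4.29. These tiles fall in the Kif3a window and outside the gene.

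Between Il4 and Il13, the tile chr11:53626501-53627000 lies 8.09 kb upstream of the outer Il4 start and 7.95 kb downstream of the Il13 start. Th2 cells had 33.4 and 25.1 FPM there, 4.35 (3.54 to 5.10) and 3.25 (2.21 to 4.12) above the rest on the log2 scale. CD8aa cells came next, with 9.28 FPM in cecum and 9.54 FPM in tumor. IL-10- Treg cells, which were second at the tile near Kif3a, had 7 fragments here in cecum and 1 in tumor. The adjoining tile chr11:53627001-53627500 had 28.1 and 20.5 FPM in Th2 cells. One tile further, at chr11:53627501-53628000, CD8aa cells led in both libraries, with 8.35 and 7.23 FPM against 1.65 and 2.47 FPM in all other cells. Th2 cells had 3.52 and 6.83 FPM there from only 2 and 3 fragments, so their order with CD8aa cells was not resolved.

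Among the tiles that passed the minimum, the 2 with the largest ratios, by the smaller of the libraries, were inside Il4. At chr11:53617001-53617500, 1.41 kb downstream of the outer start and overlapping the inner promoter printed above, Th2 cells had 22.9 and 13.7 FPM against 0.3 and 0.308 FPM elsewhere. The log2 ratios were 6.25 (5.03 to 7.48) and 5.47 (3.86 to 6.85), from 13 and 6 Th2 fragments. The next tile, chr11:53617501-53618000, had ratios of 5.25 and 5.29. IL-10+ Treg cells had no fragment in either tile in either library. Outside Th2 cells the 2 tiles held 13 and 18 fragments in cecum, and 19 and 18 in tumor. They thus passed the minimum of 20 only with their Th2 fragments, which favours a high place by ratio.

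Within Rad50, the tile chr11:53655001-53655500 had 14.1 FPM in cecum Th2 cells and 25.1 FPM in tumor Th2 cells, with log2 ratios of 4.35 (3.01 to 5.51) and 4.13 (3.08 to 5.04). The tile chr11:53663001-53663500 was taller, at 24.6 and 29.6 FPM, against 3.94 and 5.06 FPM in all other cells, with ratios of 2.64 and 2.55. IL-10- Treg cells had 14.3 and 15.0 FPM there and tumor PD1+ CD4 cells 18.1 FPM, against 3.33 and 2.93 FPM in IL-10+ Treg cells. Both tiles lie in the part of Rad50 nearer to Il13, where the locus control region is known to be. At the other end of the gene, chr11:53707001-53707500 had 31.6 and 41.0 FPM in Th2 cells and 28.6 and 26.3 FPM in the rest, with intervals of the ratio that include 0 in both libraries.

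Of the 44 tiles, Th2 led 18 in both libraries, CD8aa led 4 and Innate-like T#2 led 1. Over the tiles of the genome the shares led by these labels were 2.74%, 1.24% and 1.25%. Tiles led by another label were picked out after their values were seen. At chr11:53631001-53631500, which holds the downstream end of Il13, CD8aa cells had 8.82 FPM in cecum and 6.94 FPM in tumor. Tumor PD1+ CD4 cells had 8.30 FPM at this tile, 1.86 above the other tumor cells on the log2 scale (1.36 to 2.34). PD1+ CD4 cells had 0.977 FPM in the Il4 tile with the largest Th2 ratio, where Th2 cells of the same library had 13.7 FPM. That tile was picked for its Th2 ratio, so a low level of other labels there follows in part from the choice. The Il13 and Il4 tiles are therefore not like for like. At chr11:53610001-53610500, between Kif3a and Il4, Innate-like T#2 cells had 3.77 FPM in cecum from 4 fragments and 7.96 FPM in tumor from 24. The log2 ratios over the rest were 1.38 (-0.54 to 2.81) and 2.07 (1.37 to 2.72).

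In Rorgt gdT cells most of the signal at Il5 lay in 1 tile. It is chr11:53719501-53720000, 1.04 kb upstream of the Il5 start. It was picked as the tile beyond Rad50 with the highest Rorgt gdT level. A high ratio of these cells there follows in part from that choice. Rorgt gdT cells had 24.0 FPM there in cecum and 16.5 FPM in tumor, out of 28.7 and 24.9 FPM over the whole Il5 window. Th17 cells had 16.1 and 17.5 FPM, Th2 cells had 19.3 and 13.7 FPM from 11 and 6 fragments, and IL-10- Treg cells had 10.3 and 6.55 FPM. The log2 ratio of Rorgt gdT over all other cells was 3.27 (2.76 to 3.77) in cecum and 2.68 (2.11 to 3.22) in tumor. This tile does not include the Il5 promoter printed above, over which no Rorgt gdT or Th17 result is given because all labels together had fewer than 10 fragments there in either library.

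The Treg subsets are the comparison the study was built on, and all 6 members had a higher level in the IL-10- subset than in the IL-10+ subset of each library. The interval lay above 0 in both libraries for all 6, as it did for 7.54% of genes. At least 2-fold differences in both libraries were seen for 4 of 6 members, Il4, Il13, Il5 and Kif3a, where 1.69% of genes were at least 2-fold higher. Il4 had 15.7 against 2.45 FPM in cecum and 9.47 against 1.83 FPM in tumor, log2 differences of 2.68 (1.79 to 3.65) and 2.37 (1.06 to 4.05). For Il13 the cecum values were 29.7 against 5.60 FPM and the tumor values 14.3 against 6.97 FPM. The Il13 log2 difference was 2.40 (1.81 to 3.03) in cecum and 1.04 (0.31 to 1.84) in tumor. As a mean over cells in place of pooled fragments, the tumor value for Il13 was 0.09. Il5 differed by 1.30 (0.65 to 1.96) and 1.13 (0.28 to 2.07), and by 0.59 in the cecum when cells above 3 times the library median were removed. Kif3a differed by 1.17 and 1.16, and by 0.86 and 0.91 over its span without a flank. Within 1 kb of its ends Il4 differed by 0.23 in the tumor. Rad50 differed by 0.97 and 0.90, and Gata3 by 0.53 (0.39 to 0.67) and 0.30 (0.14 to 0.45). Levels in IL-10- Treg cells were nonetheless below Th2 for every member. The Th2 excess over IL-10- Treg cells ran from 0.60 at Gata3 to 2.30 at Il4 in cecum and from 0.60 at Gata3 to 2.52 at Il13 in tumor, on the log2 scale.

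**Figure D3:**
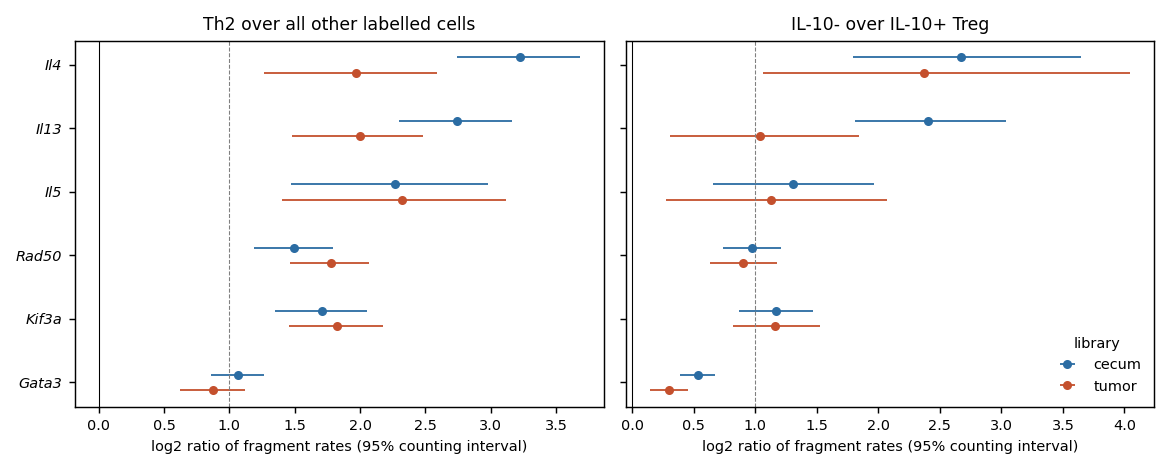
Log2 ratio of fragment rates on the x axis for the 6 genes on the y axis, Th2 over all other labelled cells on the left and IL-10- over IL-10+ Treg cells on the right. Points are libraries, bars are exact 95% counting intervals, and the dashed line is 2-fold. Every point lies above 0, and Gata3 is the smallest in both panels.

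Around Gata3, 462 tiles covered the span with 100 kb on each side, and 90 had enough fragments. Of these, 16 were at least 2-fold higher in Th2 cells in both libraries (17.8%), against 5.09% over the genome, and 7 also had intervals above 0 in both, against 0.603%. With FPM + 5 the number past 2-fold was 3. Here too Th2 fragments counted towards the minimum. The tile chr2:9858501-9859000, for example, held 19 cecum fragments outside Th2 cells. The tile with the highest Th2 level, chr2:9878501-9879000, overlaps the printed promoter and had 28.1 and 36.4 FPM in Th2 cells against 16.4 and 16.5 FPM elsewhere. The log2 ratios were 0.77 (-0.04 to 1.48) in cecum and 1.14 (0.33 to 1.85) in tumor. The tile chr2:9879501-9880000 was led by CD8aa cells in both libraries, at 40.4 and 36.1 FPM, with Th2 at 22.9 and 25.1 FPM and intervals of the Th2 ratio that include 0. At chr2:9884001-9884500, 5.65 kb upstream of the printed start, Th2 cells had 22.9 and 25.1 FPM against 4.33 and 5.48 FPM, log2 ratios of 2.40 (1.46 to 3.21) and 2.19 (1.18 to 3.05). At chr2:9889001-9889500, 10.7 kb upstream of that start, the ratios were 1.85 and 1.65.

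Towards the downstream end of Gata3, chr2:9860501-9861000 lies 17.8 kb after the start and set both Th2 cells and IL-10- Treg cells apart. Th2 cells had 22.9 FPM in the cecum from 13 fragments and 9.11 FPM in the tumor from 4. IL-10- Treg cells had 8.66 and 7.06 FPM, and IL-10+ Treg cells had 0.175 and 0.733 FPM, from 1 and 2 fragments. The log2 difference between the Treg subsets was 5.63 (3.02 to 10.99) in cecum and 3.27 (1.32 to 6.36) in tumor. The adjoining tile chr2:9861001-9861500 gave 5.18 and 3.82. These were the largest subset differences among the 31 tiles with at least 20 Treg fragments in both libraries. Both tiles passed that minimum through IL-10- Treg cells. The second held 19 and 30 fragments from them, and 1 in each library from IL-10+ Treg cells. The tiles were picked for their size, so they are not like for like with the 0.53 and 0.30 for Gata3 as a whole.

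A distal tile differed in the same direction. At chr2:9986001-9986500, inside the span of Taf3 and 108 kb upstream of the Gata3 start, Th2 cells had 12.3 and 9.11 FPM and IL-10- Treg cells 11.7 and 8.61 FPM, with 1.93 and 2.20 FPM in IL-10+ Treg cells. The subset difference was 2.60 (1.59 to 3.72) and 1.97 (0.75 to 3.48). Other parts of Gata3 went the opposite way. At chr2:9877001-9877500, IL-10- Treg cells had 6 and 14 fragments and IL-10+ Treg cells 39 and 16, log2 differences of -1.77 (-3.30 to -0.52) and -1.28 (-2.43 to -0.15). The tile chr2:9871501-9872000 differed by -2.03 and -1.17. Of the 31 tiles, 16 had the higher level in the IL-10- subset of each library and 9 had the lower, with 4 and 2 of them past 2-fold. Over the 74601 tiles of the genome with enough Treg fragments, 28.2% had the higher and 34.5% the lower level, and 3.22% and 2.2% were past 2-fold.

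**Figure D4:**
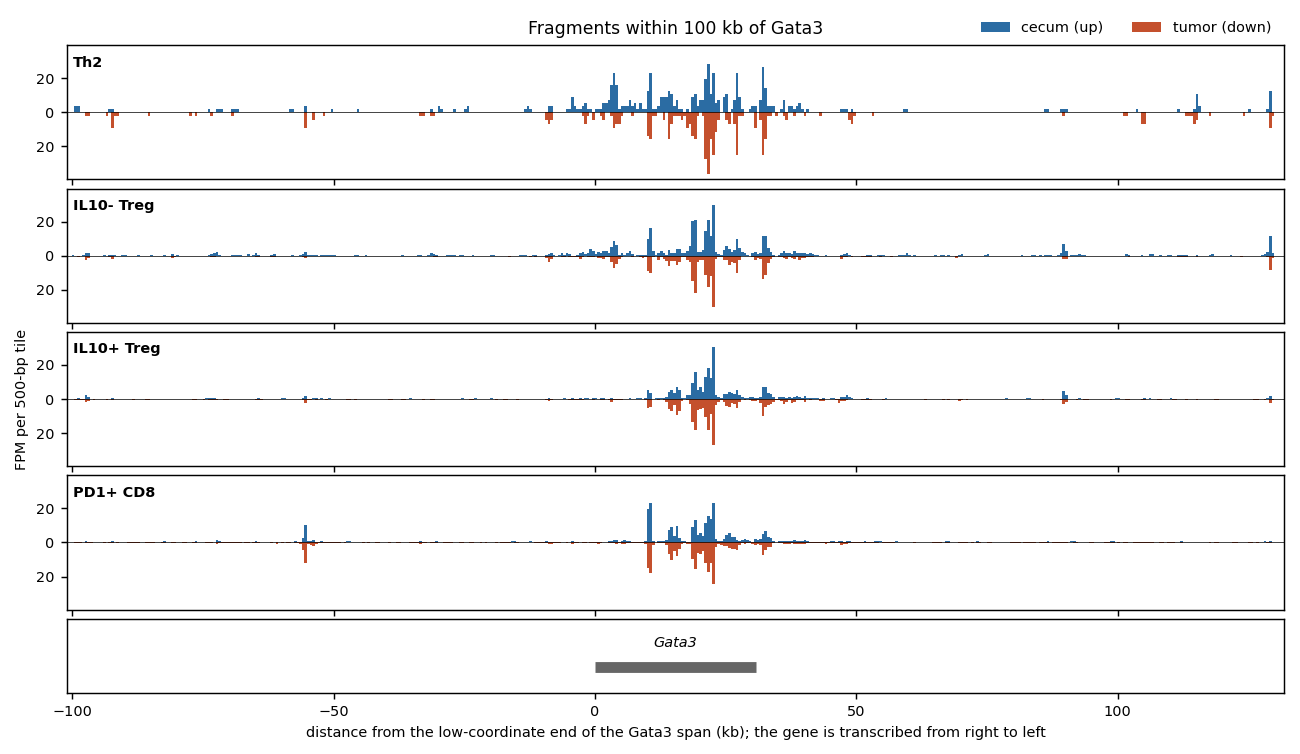
FPM per 500-bp tile (y axis, cecum upward and tumor downward on 1 shared scale) against distance from the low-coordinate end of the Gata3 span in kb, for 4 labels, with the span as a grey bar. The tiles near 20 kb are tall in all 4 labels, while those near 4 kb and at 129 kb are seen in Th2 and IL-10- Treg and hardly in IL-10+ Treg.

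Between tissues, no member differed by 2-fold within Th2 cells, where 3.74% of genes did, which says little for 6 genes. The log2 ratios of tumor over cecum in Th2 cells were -0.69 (-1.52 to 0.09) for Il4, -0.10 (-0.76 to 0.55) for Il13, -0.01 (-1.18 to 1.12) for Il5, 0.40 (-0.02 to 0.83) for Rad50, 0.29 (-0.21 to 0.79) for Kif3a and -0.16 (-0.48 to 0.16) for Gata3. All 6 intervals include 0, and those of Il4 and Il5 also include a 2-fold difference. Tissue and library cannot be told apart in this design.

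In IL-10- Treg cells Il13 was lower in the tumor, 14.3 FPM from 83 fragments against 29.7 FPM from 89 in the cecum, a log2 ratio of -1.05 with an interval below 0. It was the 1 member past 2-fold in this direction, where 0.127% of genes were. Il4 in the same cells was lower by -0.73 (-1.31 to -0.13) and Gata3 by -0.16 (-0.30 to -0.02). Il5 had 16.0 FPM in cecum and 11.2 FPM in tumor from 48 and 65 fragments, a ratio of -0.51 with an interval that includes 0, whereas the ratio was -0.02 for both Rad50 and Kif3a. Across the 16 labels the Il13 ratio ran from -1.05 to 1.67 with a median of 0.29, and its interval lay above 0 in Cytotoxic CD8, Cytotoxic gdT and newly activated CD4 cells. For Gata3 the 16 ratios ran only from -0.29 to 0.23.

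**Figure D5:**
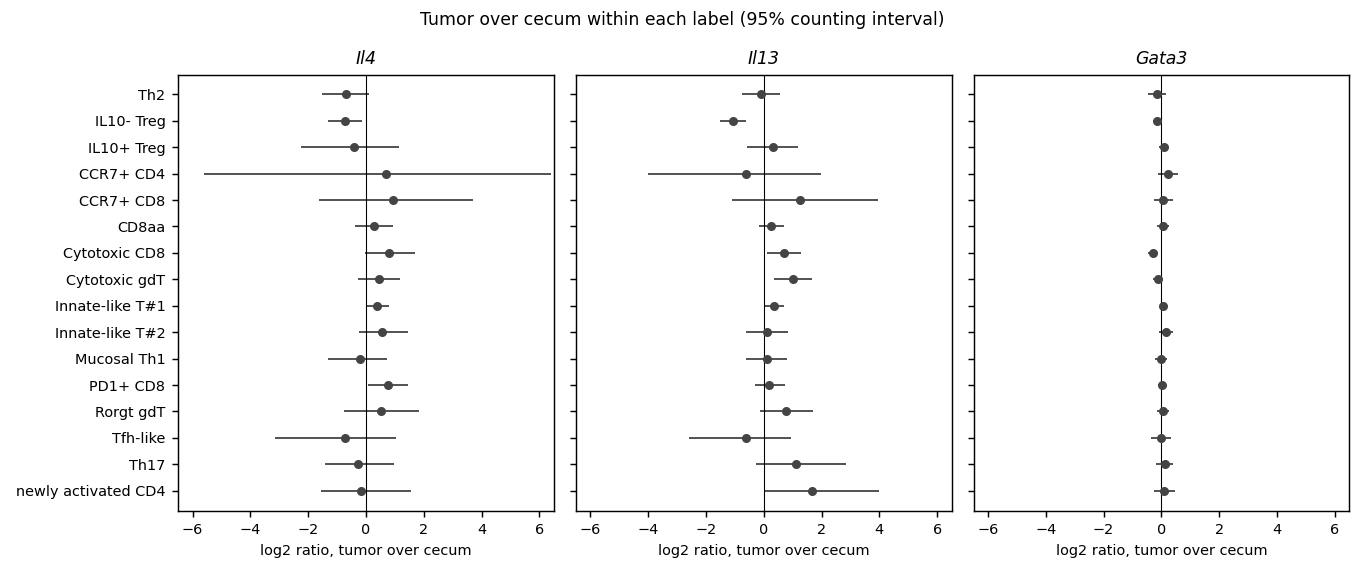
Log2 ratio of tumor over cecum on the x axis for Il4, Il13 and Gata3, with 1 point for each label that had at least 50 cells in both libraries and exact 95% counting intervals, drawn to at most 6.4 on either side. IL-10- Treg cells lie below 0 at Il13, most other labels lie above it, and all Gata3 points are close to 0.

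Levels per cell were also read, over the span from Il4 to Il13. At least 1 fragment was found in 44.4% of cecum Th2 cells (40 of 90, exact binomial interval 34.0% to 55.3%) and 41.4% of tumor Th2 cells (24 of 58, 28.6% to 55.1%). The share was 13.5% and 21.1% in CD8aa cells and 2.31% and 4.39% in IL-10+ Treg cells, and in tumor PD1+ CD4 cells it was 26.9%. Median depths were 4520 and 6294 fragments in Th2 cells, 4083 and 5479 in IL-10+ Treg cells and 9642 in tumor PD1+ CD4 cells. At an equal depth of 2000 fragments per cell, leaving out shallower cells, the shares were 22.8% and 18.2% in Th2, 6.97% and 8.27% in CD8aa, 7.72% in tumor PD1+ CD4 and 0.973% and 1.12% in IL-10+ Treg cells, over 68 and 49 Th2 cells. Th2 thus remained highest of these labels after thinning. IL-10- Treg and Innate-like T#2 cells, second to Th2 at Il4 in cecum and in tumor, are not among them.

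The members were also compared by the shape of their levels over 16 labels, as log2(FPM + 1) with no p. Il4 and Il13 were the most alike, with Pearson r of 0.86 in cecum and 0.93 in tumor. Gata3 was most like Rad50 among the members, at 0.80 and 0.78, and less like Il4 in the tumor, at 0.41. Il5 and Il13 were at 0.35 and 0.48. Among all 17354 genes compared, the 5 closest to Gata3 were Htr1b, Mrps27, Rad50, Olfr183 and Radx, with r of 0.85 and 0.84 for Htr1b. The 5 closest to Il13 were Il4, Add2, Hand2, Gm5544 and Aif1. All points share library and depth. The weight of Th2 in r was not tested. The closest list of Gata3 was not stable to the choices given in the closing section.

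Of a list of 12 other type 2 effector genes, 7 were at least 2-fold higher in Th2 cells in both libraries. The share over all genes was 1.38%. None was 2-fold lower in both, where 4.22% of genes were, which says little for 12 genes. Bhlhe41, a repressor of the clock family, had ratios of -2.60 and -0.53. They came from 2 and 7 Th2 fragments, and the tumor interval was -1.85 to 0.51. Ptgdr2, at -0.59 and 0.24, and Il4ra, at 0.09 and -0.07, were not 2-fold higher in either library. The list had a median log2 ratio of 1.37 in cecum and 1.27 in tumor, against -0.05 over all genes in each. Pparg, a nuclear receptor of type 2 lymphocytes, was 3.40 and 2.89 higher. Il17rb, part of the IL-25 receptor, was 2.28 and 2.56 higher, Epas1, a hypoxia-inducible factor, was 1.96 and 1.87 higher, and Areg, an epidermal growth factor receptor ligand, was 1.82 and 1.96 higher. IL-10- Treg cells and not Th2 had the highest level of Areg and of Ccr8, a chemokine receptor, in both libraries, and of Il1rl1, the IL-33 receptor, in cecum. Of 12 regulators of Th2 and Th1 fate, none was 2-fold different in both libraries, and the medians were 0.15 and 0.13. Since only 1.38% of all genes were higher and 4.22% lower in both, a count of 0 among 12 says little. Irf4, at 0.93 and 0.81, and Tbx21, the Th1 factor, at -0.30 and -0.16, were among these regulators.

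Other genes nearby were counted in the same way. Of 11 further genes within 250 kb of the cytokine cluster, 1 was at least 2-fold higher in Th2 cells in both libraries. It was Sowaha, at 2.25 and 1.62 from 13 and 6 fragments. Over all genes 1.38% were at least 2-fold higher in both. Of the 4 closest protein-coding genes on each side of Gata3, 8 in all, none was, which says little at that share. Taf3 stood at 0.56 and 0.81. The 4 on the low-coordinate side, Celf2 among them, lie far outside the tiled region. Markers of other cells were checked as well. The 8 T cell genes summed to 970 FPM in cecum Th2 cells against 972 FPM in the others, and Cd8a was lower at -1.75 and -1.40. None of the B cell, myeloid or epithelial genes was 2-fold higher in both libraries, which says little for so few genes at a share of 1.38%. Of 6 mast cell and basophil genes, which matter here because those cells use the same cytokine locus, 4 passed the minimum of 50 fragments, and only Gata2 was 2-fold higher in both, at 1.67 (0.59 to 2.57) and 1.21 (-0.01 to 2.20) from 10 and 8 fragments. Ms4a2, which codes for a chain of the IgE receptor, was led by Th2 cells in cecum, with 19.3 against 4.72 FPM from 11 fragments and a log2 ratio of 2.03 (1.01 to 2.90). In tumor it was 9.11 against 5.32 FPM from 4 fragments, 0.78 (-1.11 to 2.15). The summed level of the 6 was 98.5 FPM in cecum Th2 cells against 90.9 FPM in the others and 107 against 102 FPM in the tumor. The largest share of that sum came from Kit, with 49.2 and 59.2 FPM in Th2 cells against 57.7 and 66.5 FPM in the others, and Kit and Cpa3 were both led by Innate-like T#1 cells. Mcpt8 and Fcer1a were below the minimum, and their counts in Th2 cells, 0 and 0 for Mcpt8 and 0 and 1 for Fcer1a, cannot be read as low. The part of mast cells or basophils in the values of the 6 members was not tested.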

How the data were processed

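Per the file headers, the authors ran Cell Ranger ARC 2.0.0 against mm10 and deposited ATAC fragments, where every line gives the ends and barcode of 1 fragment and the raw count of its read pairs, not normalized. Per the methods of the study, the authors filtered nuclei on RNA and ATAC quality, clustered the RNA with the Leiden method and gave each cell a label. Doublets were not called here, and their removal by the study is not stated in its methods. The RNA was not analysed here.

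A fragment counted once for a window that held either of its ends. Counts were pooled by label and divided by the label's total on the autosomes, X and Y, times 1000000. RefSeq (GRCm38.p6, the same build as mm10) gave the gene spans and promoter sequences. Genes needed 50 fragments and tiles 20 over the labelled cells of each library. Ratios were made from counts with exact conditional intervals. A count of 0 was set to 3 where that gives a bound and otherwise has no value. Tiles named are, per locus, the 5 with the highest Th2 level, the 5 with the highest Th2 ratio and, at Gata3, the 3 highest and 3 lowest in the Treg comparison, by the smaller of the libraries. Of each gene list, up to 4 genes past 2-fold in both libraries are named. The members, lists and tests were chosen with earlier results of these data known. Bhlhe41, Ptgdr2, Il4ra, Irf4, Tbx21, Taf3, Cd8a, Ccr4, Ccr8, Il1rl1, Ms4a2, Kit, Cpa3, Mcpt8, Fcer1a, Celf2 and tiles led by other labels were picked after their values were seen. So was the tile upstream of Il5, taken where Rorgt gdT cells were highest beyond Rad50. Shares at 2000 fragments are the chance of at least 1 fragment when a cell is thinned to that number.

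The alternatives tried were a floor on the fragments of a cell, removal of cells above 3 times their library's median, other windows, shifted tiles, other scalings, FPM + 5, insertions in place of fragments, other comparators and higher minimums. No sample columns of other series were present. Counting and intervals were tested on simulated data. The software was scipy 1.17.1 and numba 0.67.0 for statistics and counting, pandas 2.3.3 and numpy 2.4.6 for tables, and matplotlib 3.10.9 for plots, under Python 3.11.15.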

Additional observations from a re-analysis of the deposited data

Results flagged for a closer look

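Tumor over cecum ratios went in opposite directions between labels at Il13 and Il4, each with a counting interval that excludes 0, and the difference between the labels was not tested. At Il13 the log2 ratio was -1.05 for the IL-10- Treg label (interval -1.50 to -0.60) and 1.67 for newly activated CD4 cells (0.06 to 3.98), the latter resting on 3 cecum fragments. At Il4 it was -0.73 for the IL-10- Treg label (-1.31 to -0.13) and 0.75 for PD1+ CD8 cells (0.08 to 1.47).

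Barcodes without a label, which none of the comparisons use, also held fragments at these loci. Per 1000000 unlabelled fragments, the cytokine cluster from Kif3a to Il5 had 117 (cecum, interval 113 to 122) and 145 (tumor, 141 to 150). The Gata3 span with 100 kb on each side had 200.5 (cecum, 195 to 206) and 215 (tumor, 210.3 to 220.1). A count of 0 would allow up to 0.134 and 0.0869.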

How the results depend on the processing

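With 1 library per tissue none can be left out, and no paired analysis was possible because no replicate numbers are given. Counts of members or tiles past 2-fold stayed within 1.5 times the reported number except as follows. With FPM + 5, members past 2-fold between Treg subsets fell from 4 to 2, Th2-high tiles of the cytokine cluster from 26 to 12 and those near Gata3 from 16 to 3. With a tile minimum of 50 fragments the tile counts were 12 and 9, of 26 and 45 tiles tested. Between tissues in Th2 cells, 1 member in place of 0 passed 2-fold over spans without a flank (Il13) and 1 within 1 kb of gene ends (Kif3a). Of the 5 genes closest to Gata3, 0 remained with the window at gene ends, 1 with Spearman and 2 with a gene minimum of 200 fragments, and the cause was not tested. Of 238 recomputed ratios of single members, 194 stayed within the reported interval, 44 lay outside it with the same sign and none changed sign. Without a flank Il5 had no Th2 fragment in the cecum, so 2 ratios have no value. Depth limits Il4, Il13 and Il5 most, with 13 to 50 Th2 fragments per library.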
